A study of Mus musculus with 40 samples.

Results

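The genes described here are 55 genes of mitosis and the kinetochore, chosen by name as a fixed list. The list holds a mitotic cyclin-dependent kinase and its partners, spindle checkpoint, kinetochore, spindle, cytokinesis and chromosome structure genes. No measured value entered the rule, but earlier results of these data were known when the list was chosen. All 55 were present among the 21950 genes of the deposited RNA-seq table. The table held 24 libraries from mouse T cells in 8 groups of 3. Conventional T cells (Tconvs) and thymus-derived regulatory T cells (tTregs, called nTreg in the labels) came from the spleens of 2- to 4-month-old mice and were either resting or activated. In vitro induced regulatory T cells (iTregs) were made from naive CD4 T cells of 6-week-old mice. These cells were held for 4 days on anti-CD3 and anti-CD28 with IL-2 and 2 ng/ml TGF-β, were sorted by a Foxp3 reporter, and then rested for 1 day with IL-2. They were sampled resting, restimulated, or under an inhibitor, labelled ORAIinh (taken here as CM-4620, a blocker of ORAI calcium channels) or CsA (cyclosporine A, a blocker of calcineurin and so of NFAT). The methods, not the labels, say that the inhibited cells were restimulated too, and the cell type field of the CsA libraries reads only Treg. All mice were on a C57BL/6 background and carried a Foxp3 reporter. The duration of activation and restimulation and the inhibitor doses of these libraries are not given in the sources used here. Between iTregs and the spleen cells, cell type was thus confounded with age, days of culture and exposure to TGF-β and IL-2. It was also confounded with the 4 days of induction on anti-CD3 and anti-CD28. These cannot be told apart there. The iTreg groups shared the age, the induction and the 1 day of rest. Whether restimulated and inhibited cells spent longer in culture than resting ones is not given, so restimulation and culture time cannot be told apart.

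A T cell in the spleen is mostly quiescent, and it copies its DNA and divides only after its receptor has been engaged. CDK1 with cyclin A or B drives entry into mitosis, the kinetochore ties each centromere to spindle microtubules, and the checkpoint kinases hold back the anaphase-promoting complex (APC/C) until every chromosome is attached. Most of these genes are held silent in quiescence by the DREAM complex and are switched on late in the cell cycle by B-MYB and FOXM1, through a short promoter element called CHR and CCAAT boxes bound by NF-Y.

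The promoters are shown first, since these 2 elements are what many members shared outside the rule that chose them. RefSeq (GRCm38.p6) gave a promoter of 300 bases, from 250 before to 50 after the start, for 47 of the 55 members, or 51 promoters in all. Foxm1, Kif20a, Aurkb, Tpx2, Spc24, Cdc25c, Ccna2 and Smc4 had no entry. CCAAT, on either strand, was found in 34 of the 47 members (72.3%) and in 41.1% of all 27025 genes with a promoter. A CHR-like word, TTTGAA or TTCGAA on either strand, was found in 35 members (74.5%), against 21.7% of all genes. Both together stood in 30 members (63.8%) and in 8.61% of all genes, and 2 or more CCAAT boxes in 23 members (48.9%) and 13.3% of all genes. The E2F-like words GCGGGAA and GCGCGAA were rare in members, with 4 and 2 matching genes (8.51% and 4.26%) against 5.29% and 1.81% of all genes. A match describes the letters and is no evidence of binding. The promoters of 6 members are printed, 5′ to 3′ on the gene's own strand, with each CCAAT (or its complement ATTGG) and each CHR-like word (or TTCAAA) in capitals. Ccnb2 (chr9:70421505-70421804, minus strand) and Ube2c (chr2:164769679-164769978, plus strand) are shown because they were higher in activated tTregs than in activated Tconvs, Top2a (chr11:99024140-99024439, minus strand) because it rose more in Tconvs, Cenpa (chr5:30666636-30666935, plus strand) and Kif23 (chr9:61946750-61947049, minus strand) because they fell in activated Tconvs, and Cdc20 (chr4:118437294-118437593, minus strand) because it fell the most on restimulation of iTregs. In Ube2c, a CCAAT on each strand overlap and are read as 1 run of capitals.
Ccnb2: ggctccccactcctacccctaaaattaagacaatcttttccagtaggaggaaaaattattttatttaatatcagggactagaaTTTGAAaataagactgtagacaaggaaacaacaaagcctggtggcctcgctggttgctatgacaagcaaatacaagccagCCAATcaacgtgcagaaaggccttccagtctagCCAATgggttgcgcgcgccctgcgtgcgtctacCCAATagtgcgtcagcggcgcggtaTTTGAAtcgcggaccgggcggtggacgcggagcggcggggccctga
Ube2c: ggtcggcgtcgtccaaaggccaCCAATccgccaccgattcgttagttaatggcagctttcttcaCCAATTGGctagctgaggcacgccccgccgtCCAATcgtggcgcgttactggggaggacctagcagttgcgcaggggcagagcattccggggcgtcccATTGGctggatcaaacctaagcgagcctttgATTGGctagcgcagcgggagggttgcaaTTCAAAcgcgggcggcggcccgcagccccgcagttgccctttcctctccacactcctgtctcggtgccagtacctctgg
Top2a: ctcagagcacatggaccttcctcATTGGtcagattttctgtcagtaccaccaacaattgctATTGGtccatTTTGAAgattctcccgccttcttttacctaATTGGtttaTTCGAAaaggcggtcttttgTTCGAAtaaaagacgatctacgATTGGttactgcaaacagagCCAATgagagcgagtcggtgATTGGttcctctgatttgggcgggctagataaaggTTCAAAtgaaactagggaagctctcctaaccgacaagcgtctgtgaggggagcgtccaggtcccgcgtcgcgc
Cenpa: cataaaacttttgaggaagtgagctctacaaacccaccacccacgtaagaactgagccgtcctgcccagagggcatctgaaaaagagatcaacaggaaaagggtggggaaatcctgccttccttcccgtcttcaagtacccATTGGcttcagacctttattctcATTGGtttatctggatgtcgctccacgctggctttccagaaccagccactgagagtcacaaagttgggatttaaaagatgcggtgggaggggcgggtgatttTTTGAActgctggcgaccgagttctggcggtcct
Kif23: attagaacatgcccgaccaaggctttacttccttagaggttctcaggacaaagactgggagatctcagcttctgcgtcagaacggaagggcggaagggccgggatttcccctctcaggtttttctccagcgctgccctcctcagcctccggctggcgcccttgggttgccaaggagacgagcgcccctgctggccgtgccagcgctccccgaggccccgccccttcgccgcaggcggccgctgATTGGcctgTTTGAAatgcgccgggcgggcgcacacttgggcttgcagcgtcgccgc
Cdc20: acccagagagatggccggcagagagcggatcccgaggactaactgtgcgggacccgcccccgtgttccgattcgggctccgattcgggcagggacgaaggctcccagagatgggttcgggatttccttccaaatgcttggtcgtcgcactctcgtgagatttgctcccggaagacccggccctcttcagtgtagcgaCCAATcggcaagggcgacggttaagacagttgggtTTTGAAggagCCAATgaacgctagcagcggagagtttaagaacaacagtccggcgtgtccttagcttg
All 6 held both elements, but they are picked examples, and 30 of the 47 members held both. Pttg1, which also fell in activated Tconvs, and Nusap1, which was also higher in activated tTregs, had promoters with neither element. Ccnb2 had CCAAT boxes that start 87, 54 and 21 bases before the start site, at equal spacing, and CHR-like words that start 167 bases before and 5 bases after it.

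The values are normalized counts, reads per gene divided by 1 size factor per library. Depth ran from 5256800 to 15685234 reads on genes, with a median of 10801942.5, and the tTreg libraries were the shallowest, with a median of 7582032 resting and 7131717 activated. A count of 3 reads was worth 2.12 to 5.45 normalized counts. Foxp3, which marks Tregs, stood at 6815 to 7951 in tTregs, 655 to 1338 in iTregs and 9.65 to 35.9 in Tconvs, in the order the labels call for. Summed B cell markers reached 136 normalized counts, in tTregs, and summed myeloid, dendritic and erythroid markers 25.3, 13.4 and 13.6. Summed CD8 T cell markers were at 223 to 236 in resting Tconvs, 109.5 to 123 in activated Tconvs, 105 to 178 in tTregs and 99.0 to 126 in iTregs. Summed NK cell markers were at 420 to 426 in resting Tconvs, 15.3 to 23.3 in activated Tconvs, 0 in all tTreg libraries and 24.2 to 124 in iTregs, and the part of either list in the results was not tested. No source says that the 3 libraries of a group came from separate mice or cultures, so the p-values measure the spread between these libraries, which may be technical.

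iTregs held by far the most mitotic RNA. Of the 55 members, 49 had their highest group mean in resting iTregs, 3 under ORAIinh, 1 in restimulated iTregs, 1 under CsA and 1, Smc4, in resting tTregs. As a median over the members, the level stood at 1.03% of that of resting iTregs for Tconvs at rest and 6.35% once activated, and at 1.59% for tTregs at rest and 5.55% once activated. It was 82.5% in restimulated iTregs, 88.3% under ORAIinh and 83.2% under CsA. Counted as RPM (reads scaled to the library's total reads on genes) in place of normalized counts, activated tTregs stood at 6.34% and activated Tconvs at 6.26%, so the order of those groups depended on the scale. In bulk RNA, fewer dividing cells and less mitotic RNA per cell cannot be told apart.

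**Figure D1:**
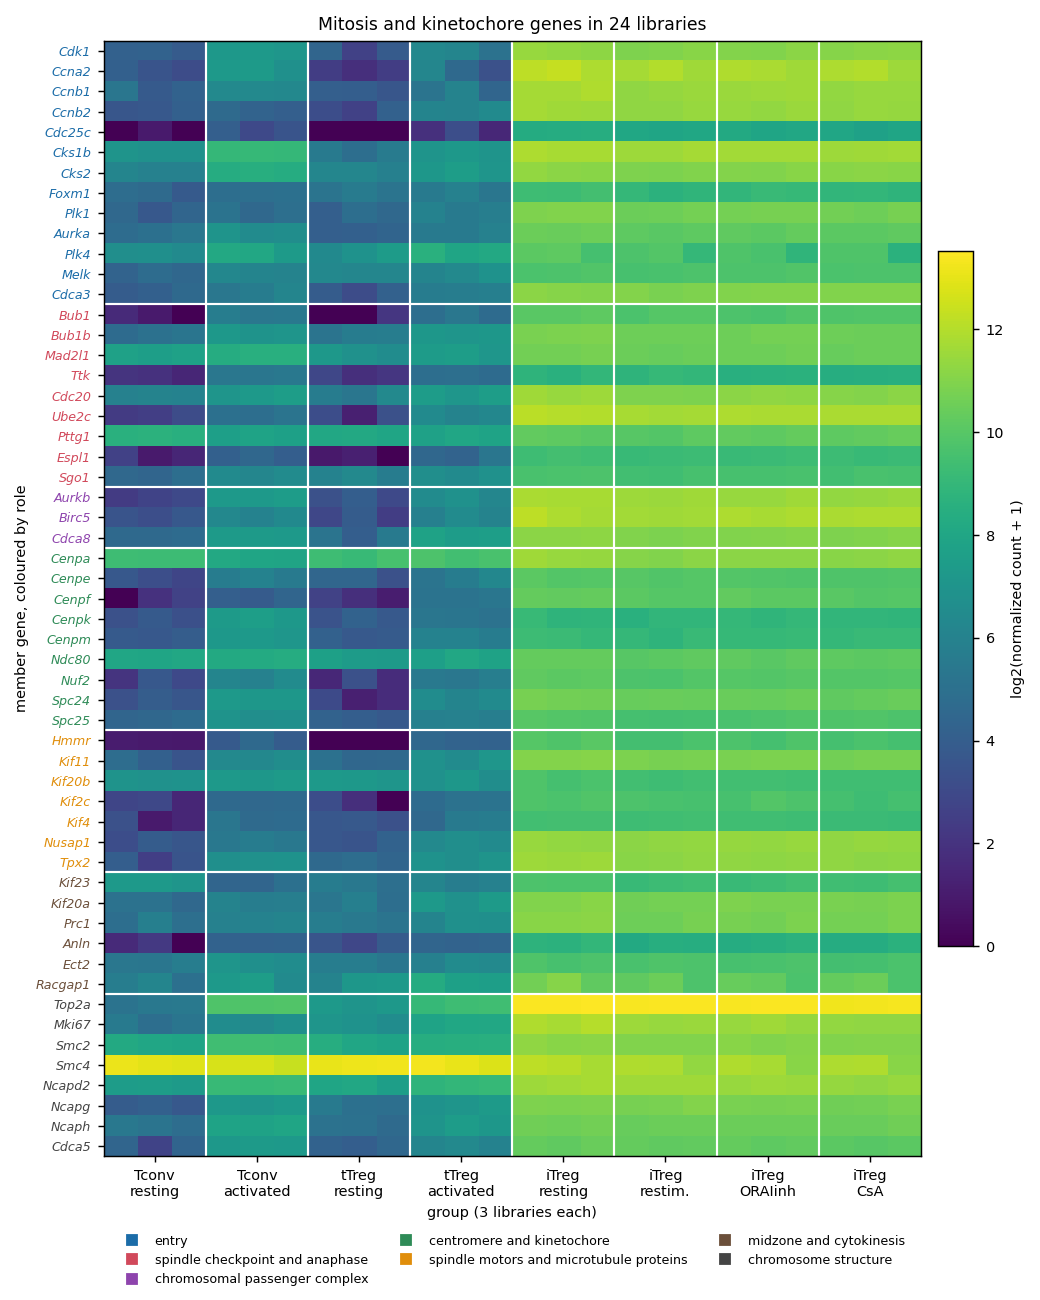
Level of each of the 55 members (rows, coloured and grouped by role) in each of the 24 libraries (columns), as log2(normalized count + 1) on the colour scale. Nearly every row is darker in the Tconv and tTreg columns than in all 12 iTreg columns. The Smc4 row is bright throughout and brightest in the Tconv and tTreg columns.

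The 2 members of each role with the highest level per kilobase of exon are given next library by library, in normalized counts. Among the genes of mitotic entry, Cks2 and Cks1b, small subunits that bind CDK1, led on this measure. Cks1b was at 129, 115 and 115 resting and 507, 533 and 521 activated in Tconvs, 44.4, 28.5 and 47.8 resting and 127, 146 and 129 activated in tTregs, and 3744, 3412 and 3425 in resting iTregs. Cks2 was at 71.0, 61.0 and 61.4 resting and 329.5, 356 and 325 activated in Tconvs, 72.6, 72.7 and 59.2 resting and 144, 182 and 133 activated in tTregs, and 2576, 2318 and 2237 in resting iTregs. For both genes the resting tTreg libraries lay below every activated Tconv library, and no library of any spleen group came near those of iTregs. Among the genes of the spindle checkpoint and anaphase, Ube2c, the E2 enzyme of the APC/C, was at 4.11, 4.69 and 7.90 resting and 30.5, 28.5 and 35.4 activated in Tconvs, 8.16, 1.30 and 9.11 resting and 88.9, 64.3 and 76.3 activated in tTregs, and 4426, 4168 and 4009 in resting iTregs. Cdc20, an activator of the APC/C, was at 59.7, 65.7 and 64.1 resting and 134, 154 and 187 activated in Tconvs, 50.8, 38.9 and 82.0 resting and 175, 135 and 185 activated in tTregs, and 3070.2, 2832 and 3029 in resting iTregs. The activated tTreg libraries lay above all activated Tconv libraries for Ube2c, and overlapped them for Cdc20. Of the exon bases of Ube2c, 22.8% are shared with Tnnc2 on the other strand, which these unstranded counts cannot separate.

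In the chromosomal passenger complex, Aurkb, its kinase, was at 4.11, 5.63 and 7.02 resting and 159.8, 155 and 176 activated in Tconvs, 9.07, 15.6 and 6.83 resting and 92.9, 114 and 72.7 activated in tTregs, and 3588, 3427 and 3478 in resting iTregs. Birc5 (survivin), which carries the kinase to the centromere, was at 10.3, 8.44 and 12.3 resting and 79.0, 63.8 and 84.9 activated in Tconvs, 6.35, 14.3 and 4.56 resting and 57.9, 89.9 and 65.4 activated in tTregs, and 4568, 3737 and 3399 in resting iTregs. Both were near the counting floor in resting spleen cells and were high in every iTreg library. At the kinetochore, Spc24, of the NDC80 complex, was at 9.26, 15.0 and 11.4 resting and 159.8, 142 and 141 activated in Tconvs, 7.26, 1.30 and 2.28 resting and 95.6, 68.1 and 87.2 activated in tTregs, and 1745, 1584 and 1547 in resting iTregs. Cenpa, the histone H3 variant that marks the centromere, was at 643, 627 and 625 resting and 286, 243 and 238 activated in Tconvs, 651, 550.2 and 782 resting and 866, 685 and 808 activated in tTregs, and 3050.2, 2805 and 2688 in resting iTregs. Cenpa was thus well above the floor in quiescent cells, and the activated Tconv libraries were the lowest of all.

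Of the spindle genes, Nusap1, which bundles microtubules, was at 8.23, 14.1 and 11.4 resting and 41.3, 50.0 and 41.0 activated in Tconvs, 11.8, 10.4 and 18.2 resting and 80.8, 101 and 89.0 activated in tTregs, and 2800.4, 2611 and 2500.1 in resting iTregs. Tpx2, which activates Aurora A on the spindle, was at 15.4, 4.69 and 10.5 resting and 104, 114 and 119.6 activated in Tconvs, 23.6, 27.2 and 20.5 resting and 117, 103 and 127 activated in tTregs, and 2976, 2868 and 2949 in resting iTregs. Activated tTregs overlapped activated Tconvs for Tpx2 and lay above them for Nusap1. Of the genes of the midzone and cytokinesis, Kif20a, a kinesin of the midzone, was at 32.9, 32.8 and 22.8 resting and 65.5, 52.6 and 55.2 activated in Tconvs, 38.1, 55.8 and 28.5 resting and 155, 115 and 163 activated in tTregs, and 1988, 2011 and 2248 in resting iTregs. Prc1, which cross-links midzone microtubules, was at 28.8, 55.3 and 29.8 resting and 60.2, 62.1 and 68.6 activated in Tconvs, 52.6, 42.8 and 36.4 resting and 68.7, 109 and 107 activated in tTregs, and 2233, 2264 and 2348 in resting iTregs. For both, every activated tTreg library lay above every activated Tconv library. For Prc1 the nearest values were 68.7 and 68.6, and the test between these groups, given below, did not call it. Kif20a shares 29.3% of its exon bases with Cdc23 and Prc1 11.1% with Rccd1, both on the other strand.

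Among the chromosome structure genes, Top2a, the topoisomerase that untangles sister chromatids, was at 33.9, 42.2 and 43.0 resting and 879, 901 and 938 activated in Tconvs, 159.7, 126 and 146 resting and 540.0, 637 and 659 activated in tTregs, and 11376, 11165 and 11829.8 in resting iTregs. Mki67, the proliferation marker Ki-67, was at 44.2, 28.1 and 36.9 resting and 93.4, 81.1 and 106 activated in Tconvs, 133, 118 and 94.5 resting and 229, 267 and 278 activated in tTregs, and 3898, 3447 and 4205 in resting iTregs. Resting tTregs were above resting Tconvs for both genes in every library, and for Mki67 resting tTregs were also at or above the activated Tconv libraries, with 1 of their 3 values inside that range.

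The comparison of resting iTregs with the spleen cells asks how the induced cells differ from the cells taken from the spleen. By limma across the 15 libraries of Tconvs, tTregs and resting iTregs, called at an adjusted p under 0.05 and an absolute log2 fold change over 0.5 on the log2(normalized count + 1) scale, 54 of the 55 members were higher in resting iTregs and 1, Smc4, was lower, in each of the 4 comparisons. Of all 11495 genes tested, 32.8% were called higher against resting Tconvs, 22.9% against activated Tconvs, 32.3% against resting tTregs and 28.9% against activated tTregs, and 30.8%, 18.7%, 31.1% and 28.2% were called lower. The median log2 fold change of the members was 6.55, 3.98, 5.90 and 4.18 in that order. All 55 members passed the filter on low values, and 54 would have passed it without the iTreg libraries. Cdc25c, a phosphatase that activates CDK1, is the one that would not, so its inclusion rests on iTregs. Over resting Tconvs the largest rises were in Ube2c (9.36 ± 0.42, log2 ± SE), Bub1 (9.24 ± 0.50) and Aurkb (9.08 ± 0.25), and over resting tTregs the largest fitted values were in Hmmr (9.94 ± 0.24, set by the pseudocount, since it had no read there), Ccna2 (9.87 ± 0.51) and Ube2c (9.46 ± 0.42). The 3 largest rises over activated Tconvs were in Ccnb2 (cyclin B2) at 7.25 ± 0.30 (log2 ± SE), Ube2c at 7.02 ± 0.42 and Cenpf, a large outer kinetochore protein, at 6.19 ± 0.52. Over activated tTregs they were in Ccna2 (cyclin A2) at 7.40 ± 0.51, Ccnb1 (cyclin B1) at 6.57 ± 0.37 and Cdc25c at 6.15 ± 0.44. The smallest rises over activated Tconvs included Cenpk, of the constitutive centromere network, at 1.56 ± 0.22 and Smc2, of condensin, at 1.79 ± 0.13. Ccnb2 was at 11.3, 12.2 and 16.7 resting and 24.2, 19.0 and 16.3 activated in Tconvs, 8.16, 5.19 and 17.1 resting and 67.3, 65.3 and 87.2 activated in tTregs, and 3315, 3068 and 3043 in resting iTregs. Cenpf was at 0, 2.81 and 5.27 resting and 16.2, 13.8 and 20.5 activated in Tconvs, 5.44, 2.60 and 1.14 resting and 35.0, 35.0 and 38.1 activated in tTregs, and 1296, 1255 and 1301 in resting iTregs. For both, the libraries of resting iTregs lay far above all spleen libraries. Ccna2 was at 16.5, 10.3 and 7.90 resting and 155, 162 and 108 activated in Tconvs, 4.54, 2.60 and 4.56 resting and 74.1, 23.7 and 9.08 activated in tTregs, and 4681, 5187 and 3737 in resting iTregs. Ccnb1 was at 38.1, 13.1 and 18.4 resting and 82.6, 81.1 and 79.2 activated in Tconvs, 16.3, 15.6 and 11.4 resting and 36.4, 64.3 and 20.0 activated in tTregs, and 3371, 3333 and 3933 in resting iTregs. For both cyclins the activated tTreg libraries lay below all activated Tconv libraries. Cdc25c was at 0, 0.938 and 0 resting and 16.2, 6.90 and 10.6 activated in Tconvs, 0, 0 and 0 resting and 2.69, 8.51 and 1.82 activated in tTregs, and 317, 326 and 339.9 in resting iTregs. Bub1, a checkpoint kinase, was at 2.06, 0.938 and 0 resting and 52.1, 40.5 and 41.7 activated in Tconvs, 0, 0 and 3.42 resting and 28.3, 39.7 and 25.4 activated in tTregs, and 1072, 1068 and 1141 in resting iTregs. The spleen levels of Cdc25c and Bub1 at rest are a few reads. Hmmr, a spindle-binding protein, had no read in the 3 resting tTreg libraries and was at 989, 907 and 1060.0 in resting iTregs, at least 295-fold higher against a floor of 3 reads per library. Bub1 had 3 reads over the 3 resting Tconv libraries, which gives a ratio of 1164 with an exact counting interval of 398 to 5647, and this interval covers counting error only.

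Smc4, a core ATPase of condensin, was the exception. It was at 8850.0, 8183 and 7500.0 normalized counts in resting Tconvs, 6736, 6626 and 5460.0 in activated Tconvs, 8764, 9302 and 9746 in resting tTregs and 9859, 8741 and 7200.4 in activated tTregs, against 4672, 4332 and 3510.0 in resting iTregs. Every spleen library lay above every resting iTreg library. The fold change in resting iTregs was -0.98 ± 0.13 (log2 ± SE, adjusted p = 6.1e-06, limma) against resting Tconvs, -0.59 ± 0.13 (adjusted p = 0.0012) against activated Tconvs, -1.16 ± 0.13 (adjusted p = 1.1e-06) against resting tTregs and -1.04 ± 0.13 (adjusted p = 4.3e-06) against activated tTregs. Without replicate 3 of resting iTregs the value against activated Tconvs was -0.47 and missed the fold threshold. Its condensin partner Smc2 was at 292, 257 and 241 in resting Tconvs, 678, 677 and 649.5 in activated Tconvs and 2448, 2204 and 2314 in resting iTregs, and so went the way of the other members. In the resting spleen cells Smc4 alone made up most of the summed level: the 55 members summed to 1092 ± 78.1 RPM (SD, n = 3) in resting Tconvs, and the 54 without Smc4 to 310.5 ± 10.1.

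**Figure D2:**
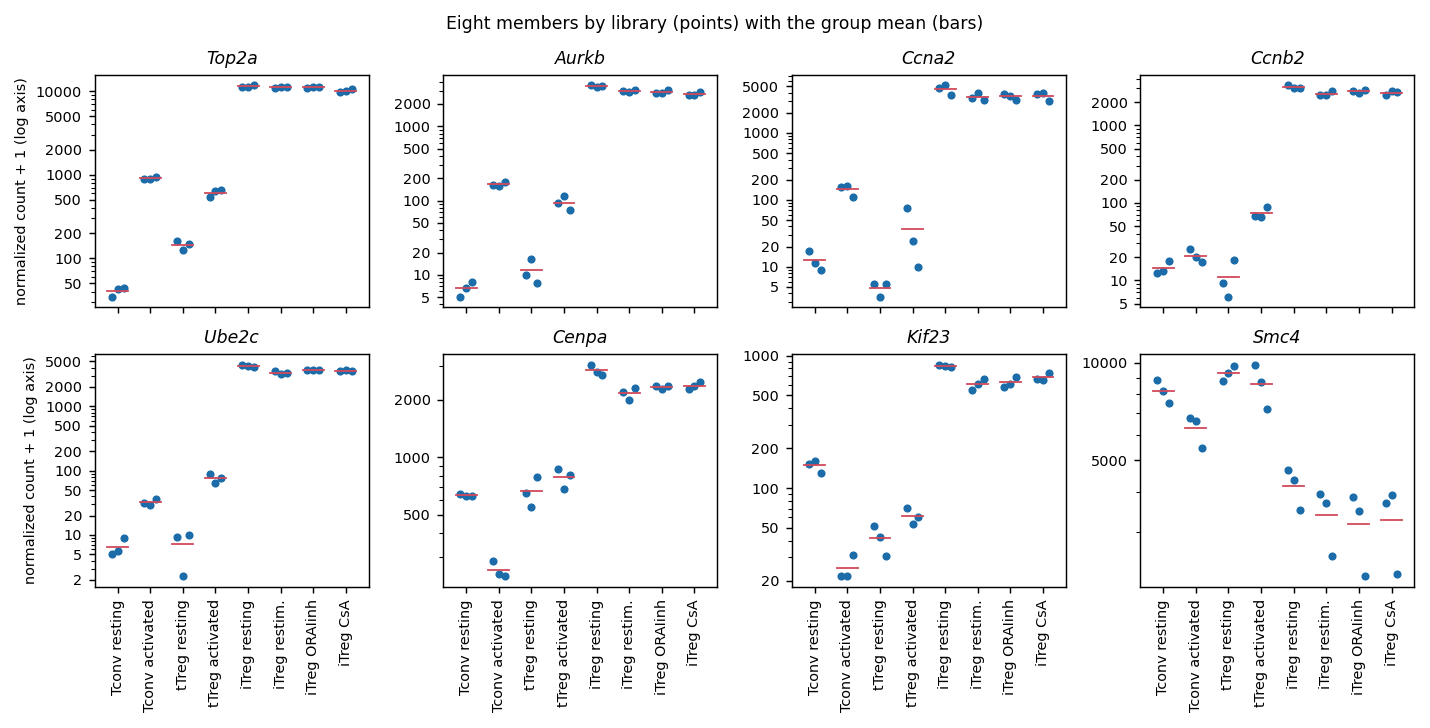
Normalized count + 1 (log axis) of 8 members in each library (points), with the mean of each group of 3 (bars). Cenpa and Kif23 are lowest in activated Tconvs, Ccnb2 and Ube2c are higher in activated tTregs than in activated Tconvs, Ccna2 is the reverse, and Smc4 is lowest in the iTreg groups.

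Activation of Tconvs raised most of the list. By the same test, 47 members rose (24.5% of all genes did), 3 fell (25.7% of all genes) and 5 were not called, and the median log2 fold change was 2.18 against -0.04 over all genes tested. All 3 members of the chromosomal passenger complex rose, as did 11 of 13 genes of mitotic entry, 8 of 9 of the spindle checkpoint and anaphase, 7 of 9 of the kinetochore, 6 of 7 spindle genes, 5 of 6 of the midzone and cytokinesis and 7 of 8 of chromosome structure. The 3 largest rises were in Aurkb (4.67 ± 0.25, log2 ± SE), Bub1 (4.65 ± 0.50) and Top2a (4.48 ± 0.11), with Bub1 resting on 3 reads in resting Tconvs (ratio 47.1, counting interval 15.8 to 231). The members not called were Smc4 (-0.39), Ndc80 (0.28), Kif20b (0.39), Foxm1 (0.50) and Ccnb2 (0.53). Foxm1, the transcription factor of late cell cycle genes, was at 27.8, 24.4 and 13.2 in resting and 28.7, 29.3 and 31.1 in activated Tconvs. Its adjusted p was 0.09 by limma.

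The 3 members that fell in activated Tconvs do different things. Kif23, the kinesin of centralspindlin needed for cytokinesis, was at 151, 160.4 and 129.9 in resting and 20.7, 20.7 and 30.4 in activated Tconvs, a log2 fold change of -2.59 ± 0.20 (adjusted p = 3.5e-08, limma). Cenpa went from 643, 627 and 625 to 286, 243 and 238, a change of -1.31 ± 0.12 (adjusted p = 3e-07). Pttg1 (securin, which restrains the protease that parts sister chromatids) went from 387, 406 and 374 to 198, 229 and 204, a change of -0.88 ± 0.11 (adjusted p = 3.6e-06). None of the 3 overlapped between the groups. In all, every activated library lay above every resting one for 49 members and below for 4, against 35.4% and 38.5% of all genes.

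Activation of tTregs raised 45 members and lowered none, and 10 were not called; 11.9% of all genes rose and 10% fell. The count at an unadjusted p under 0.05 was 49 up and 1 down (23.2% and 21.7% of all genes), edgeR gave 45 up and 0 down, and DESeq2 44 up and 0 down. The median log2 fold change was 1.74, against 0.00 over all genes. The 3 largest rises were in Spc24 (4.40 ± 0.34, log2 ± SE), Hmmr (4.36 ± 0.24, a fitted value that depends on the pseudocount) and Bub1 (4.27 ± 0.50). Spc24 had few reads at rest, with 7.26, 1.30 and 2.28 in resting tTregs, where 3 reads were worth 2.72, 3.89 and 3.42. Hmmr, at 0 reads in all resting tTreg libraries, was at 21.5, 18.9 and 18.2 in activated ones, at least 5.85-fold higher against the floor of 3 reads per library. Bub1 had 3 reads over the resting tTreg libraries (ratio 30.0, counting interval 9.90 to 149). The members not called were Foxm1, Melk, Mad2l1, Pttg1, Cenpa, Ndc80, Kif20b, Anln, Smc2 and Smc4, with log2 fold changes from -0.31 to 0.92. Kif23, which fell in Tconvs, was at 50.8, 41.5 and 29.6 in resting and 70.0, 53.0 and 59.9 in activated tTregs and rose by 0.60 ± 0.20 (adjusted p = 0.031, limma), a call that was lost without any one of 4 of the 6 tTreg libraries (replicate 3 of either group, replicate 1 activated and replicate 2 resting).

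The difference between the activation responses was tested as an interaction. For 15 members the log2 response was larger in Tconvs and for 6 it was larger, or less negative, in tTregs, against 17% and 17.7% of all genes. With quantile normalization the split was 13 to 10. The largest excess in Tconvs was in Cenpk (2.50 ± 0.31, adjusted p = 1.7e-05, limma), Top2a (2.40 ± 0.16, adjusted p = 3.4e-08) and Anln, the cytokinetic scaffold anillin (2.03 ± 0.60, adjusted p = 0.014). Cenpk was at 9.26, 13.1 and 8.78 in resting and 163, 191 and 146 in activated Tconvs, and at 9.98, 18.2 and 12.5 and 39.1, 36.9 and 32.7 in tTregs. Anln had more reads at rest in tTregs, with 10.9, 6.49 and 13.7 against 2.06, 3.75 and 0 in Tconvs, and the activated groups were at 18.0, 17.2 and 18.4 in Tconvs and 20.2, 18.9 and 20.0 in tTregs. By limma, Anln was higher in resting tTregs than in resting Tconvs (2.16 ± 0.42), and Cenpk was lower in activated tTregs than in activated Tconvs (-2.17 ± 0.22).

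The largest excess in tTregs was in Kif23 (-3.19 ± 0.28, adjusted p = 6.8e-07), Ccnb2 (-2.33 ± 0.43, adjusted p = 0.00057) and Cenpa (-1.56 ± 0.17, adjusted p = 6.1e-06), all by limma. Ccnb2 was at 11.3, 12.2 and 16.7 in resting and 24.2, 19.0 and 16.3 in activated Tconvs, where the groups overlapped at 0.53 on the log2 scale (adjusted p = 0.14). In tTregs it was at 8.16, 5.19 and 17.1 resting and 67.3, 65.3 and 87.2 activated, with no overlap and a rise of 2.87 ± 0.30. The call for Ttk, a checkpoint kinase (adjusted p = 0.046, limma), was lost under quantile normalization, the replicate block, edgeR and DESeq2 among others. That for Hmmr was lost under edgeR and DESeq2, and that for Kif20a without any one of 8 of the 12 libraries. The Anln call was lost with a pseudocount of 0.1.

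**Figure D3:**
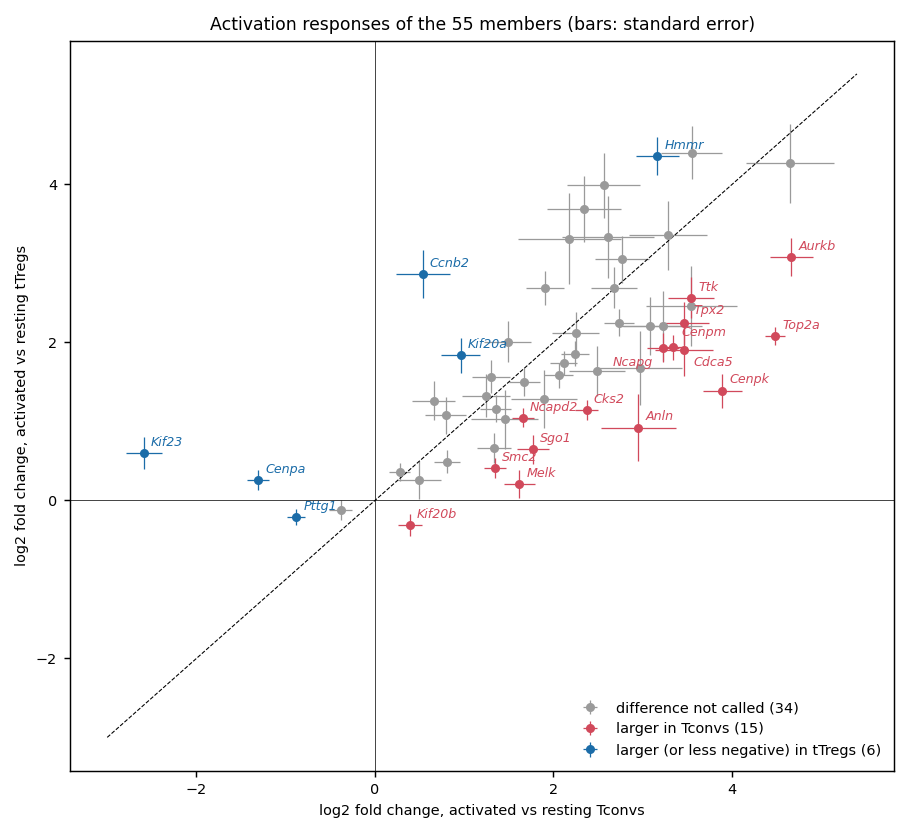
Log2 fold change on activation of each of the 55 members in Tconvs (x) and tTregs (y), with standard errors; the dashed line marks equal responses. The 15 red members rose more in Tconvs and the 6 blue ones rose more, or fell less, in tTregs; Kif23 and Cenpa are the only members left of zero by more than 1 in Tconvs.

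The activated cells were then set side by side. By limma, 9 members were higher in activated tTregs than in activated Tconvs (25.6% of all genes) and 18 were lower (22.6% of all genes). The 54 members without Smc4 summed to 743 ± 17.9 RPM (SD, n = 3) in activated Tconvs and 743 ± 9.72 in activated tTregs, while on normalized counts the tTreg sum was 0.86 of that of Tconvs. Lower in tTregs were 7 of 13 genes of mitotic entry, led by Ccna2 (-2.41 ± 0.51) and Cks1b (-1.96 ± 0.15), and 4 of 9 kinetochore genes, led by Cenpk (-2.17 ± 0.22). Ccna2 was at 155, 162 and 108 in activated Tconvs and at 74.1, 23.7 and 9.08 in activated tTregs, with 1 library well above the other two. Cdk1 itself was at 148, 151 and 139 in activated Tconvs and 78.1, 70.0 and 32.7 in activated tTregs (-1.36 ± 0.36, adjusted p = 0.005). Higher in tTregs were Ccnb2 (1.84 ± 0.30), Cenpa (1.62 ± 0.12), Mki67 (1.46 ± 0.17), Kif23 (1.33), Kif20a (1.30), Ube2c (1.25), Nusap1 (1.02), Plk1, the Polo kinase of mitosis (0.90), and Foxm1 (0.66). Among these calls, that of Foxm1 was lost under quantile normalization and without replicate 1 or 2 of either group, and that of Ube2c without replicate 2 of Tconvs or replicate 1 of tTregs. Among the lower ones, Spc24, 1 of the 4 kinetochore genes, was lost without any one of the 6 libraries, and Cdc25c, 1 of the 7 entry genes, in edgeR and without any one of 3 libraries (replicate 1 of either group or replicate 3 of tTregs). Cyclins A2 and B2, 2 partners of CDK1, therefore differed in opposite directions between the same groups.

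At rest, tTregs and Tconvs also differed. By limma 13 members were higher in resting tTregs (20.5% of all genes) and 10 were lower (18.2% of all genes), close to the background shares, and quantile normalization gave 10 and 16, edgeR 11 and 7, and DESeq2 12 and 7. The largest rises were in Anln (2.16 ± 0.42, log2 ± SE), Top2a (1.83 ± 0.11) and Melk, a mitotic kinase (1.72 ± 0.18). Melk was at 18.5, 26.3 and 21.9 in resting Tconvs and 78.0, 72.7 and 74.0 in resting tTregs. The largest falls were in Kif23 (-1.86 ± 0.20), Spc24 (-1.68 ± 0.34) and Cks1b (-1.58 ± 0.15). Anln in resting Tconvs (2.06, 3.75 and 0) and Spc24 in resting tTregs (7.26, 1.30 and 2.28) had few reads. Each of these 6 genes was separated between the groups, as were 10 members above and 10 below in all, against 29% and 29.5% of all genes.

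The other genes of the pathway were taken from fixed lists outside the members. In activated Tconvs, where 24.5% of all genes rose and 25.7% fell, 22 of 35 other centromere and kinetochore genes rose and none fell, 22 of 28 other spindle and cytokinesis genes rose and 3 fell, and 6 of 15 other regulators of mitotic entry rose and 3 fell. Among these regulators Wee1, the kinase that holds CDK1 inactive, rose by 1.53 and Cdc25b, a phosphatase that opposes it, changed by -3.15, from 2390.0 to 269 normalized counts. Of 17 genes of the list of APC/C subunits and Fzr1, 3 rose and none fell, and of 16 cohesin and other condensin genes 4 rose and 3 fell. Of 16 DREAM, MuvB and NF-Y genes, 3 rose, led by Tfdp1, a partner of the E2F factors (3.00), and 5 fell, led by E2f5 (-0.98). In activated tTregs, where 11.9% of all genes rose and 10% fell, the counts up and down were 20 and 0 for the kinetochore list, 21 and 0 for the spindle list, 2 and 0 for the entry regulators, 4 and 0 for the APC/C, 2 and 0 for cohesin and condensin, and 2 and 3 for the DREAM list. Mybl2, the gene of B-MYB, led the last with 1.90. In resting iTregs against activated Tconvs, where 22.9% of all genes were higher and 18.7% lower, 29 of 35 kinetochore genes, 27 of 28 spindle genes, 8 of 15 entry regulators, 7 of 17 APC/C genes and 5 of 16 cohesin and condensin genes were higher, with 0, 0, 1, 0 and 4 lower. Examples are Ska1, of the outer kinetochore complex SKA (4.42), Kif14, a kinesin of cytokinesis (5.66), and Ube2s, the second E2 enzyme of the APC/C (1.91).

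A list of 40 S phase genes, for DNA replication, was set beside the members. All 40 were tested, and 38 rose in activated Tconvs (24.5% of all genes) and 35 in activated tTregs (11.9%), with none lower. Their response was larger in Tconvs for 30 (17% of all genes) and in tTregs for 0 (17.7%), and 34 were lower in activated tTregs than in activated Tconvs (22.6%). Summed over the list, they reached 1476 ± 7.27 resting and 5623 ± 120.1 activated in Tconvs, 1639.9 ± 113 resting and 3223 ± 242 activated in tTregs, and 9972 ± 326 in resting iTregs (RPM, SD, n = 3). The members without Smc4 were at 310.5 ± 10.1 resting and 743 ± 17.9 activated in Tconvs, 385 ± 12.3 resting and 743 ± 9.72 activated in tTregs, and 10025 ± 158 in resting iTregs. On normalized counts, resting iTregs were thus 1.75-fold above activated Tconvs for the S phase sum and 13.3-fold above them for the mitosis sum.

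**Figure D4:**
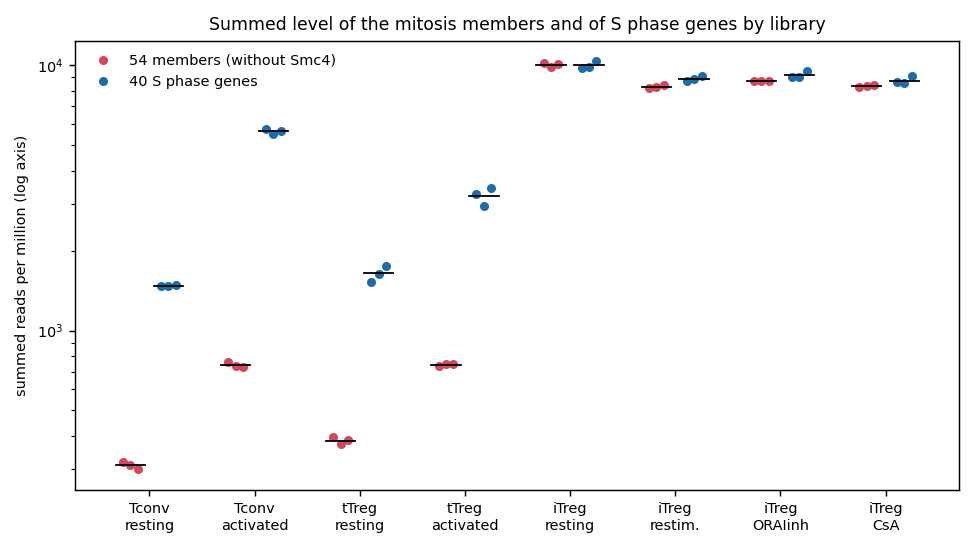
Summed RPM (log axis) of the 54 members without Smc4 (red) and of 40 S phase genes (blue) in each library, with the group mean (bars). The S phase sum of activated Tconvs lies closer to the iTreg libraries than their mitosis sum does, and the mitosis sums of both activated spleen groups overlap.

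Restimulation of iTregs asks whether a second round of receptor signalling moves the list. By limma over the 12 iTreg libraries, no member rose (6.7% of all 11105 genes did), 3 fell (6.13% of all genes) and 52 were not called. At an unadjusted p under 0.05, 0 members were higher and 38 lower (19.3% and 20.5% of all genes), and edgeR and DESeq2 each gave 0 up and 3 down. The members that fell were Cdc20, Prc1 and Foxm1. Cdc20 was at 3070.2, 2832 and 3029 in resting and 1948, 1912 and 1826 in restimulated iTregs, a log2 fold change of -0.65 ± 0.06 (adjusted p = 1.3e-06). Prc1 went from 2233, 2264 and 2348 to 1477, 1478 and 1719 (-0.55 ± 0.07, adjusted p = 5.7e-05). Foxm1 went from 639, 618 and 728 to 507, 418 and 462 (-0.52 ± 0.09, adjusted p = 0.00083), and its call was lost without replicate 3 of the resting or replicate 2 of the restimulated libraries, and in 1 fit over all 24 libraries.

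The shift across the list was small and nearly one-sided. The median log2 fold change of the members was -0.27, with a range of -0.65 to 0.14, and the sum of the 54 members without Smc4 went from 10025 ± 158 to 8282 ± 106 RPM. With the adjusted p alone and no fold threshold, 36 members were lower and 0 higher, against 15.2% and 14.2% of all genes. Every restimulated library lay below every resting one for 38 members and above for none, where 20.9% and 19.8% of all genes did so. Some members had an interval that includes zero. Top2a was at 11376, 11165 and 11829.8 in resting and 10843, 11131 and 11334 in restimulated iTregs, with a 95% interval of -0.15 to 0.06 on the log2 scale, and Ttk at 448, 388 and 499 and 446, 531 and 490.4, with an interval of -0.06 to 0.34. The S phase list had none of 40 called in either direction.

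Neither inhibitor moved a member past the threshold. Against restimulated iTregs, 0 of 55 members were called under ORAIinh (1.5% of all genes were higher and 1.79% lower) and 0 under CsA (1.57% and 1.35% of all genes). At an unadjusted p under 0.05 there were 11 members higher and 1 lower under ORAIinh (10.7% and 9.91% of all genes) and 7 higher and 9 lower under CsA (11.1% and 11.7%). With the adjusted p alone, 3 members passed under ORAIinh (7.83% of all genes) and 5 under CsA (8.51%), and edgeR and DESeq2 called 0 in both. The median log2 fold change was 0.08 under ORAIinh and 0.04 under CsA, and the 95% interval of 51 members under each inhibitor lay within 0.5 of zero. The 4 members whose interval reached further were Plk4, Ttk, Racgap1 and Smc4 under either inhibitor. Cdc20, which had fallen on restimulation, was at 2301, 2528 and 2368 under ORAIinh (0.34 ± 0.06, adjusted p = 0.0022) and 2156, 2093 and 2321 under CsA (0.21 ± 0.06, adjusted p = 0.043). All these libraries lay above the restimulated ones and below the resting ones, and the comparisons share the restimulated libraries. Ttk was at 373, 379 and 405 under ORAIinh (-0.34 ± 0.09, adjusted p = 0.036) and 346, 351 and 365 under CsA (-0.46 ± 0.09, adjusted p = 0.0062), below every restimulated library. Without replicate 1 of restimulated iTregs, Ttk was called under CsA.

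The inhibitors were then compared with each other. Between ORAIinh and CsA, 0 of 55 members were called (0.0991% of all genes were higher and 0.261% lower), 9 were higher and 0 lower at an unadjusted p under 0.05 (5.99% and 5.19% of all genes), and edgeR and DESeq2 called 0. The estimates ran from -0.13 to 0.26 on the log2 scale, and the 95% interval of 52 members lay within 0.5 of zero. Top2a was at 10954, 11286 and 11312 under ORAIinh and 9680.4, 10016 and 10495 under CsA, a difference of 0.15 ± 0.05 (interval 0.05 to 0.26). Every CsA library lay below every ORAIinh library for 13 members and above for 0, where 10.6% and 8.55% of all genes did so. The sums without Smc4 were 8712 ± 22.5 RPM under ORAIinh and 8341 ± 80.1 under CsA. Against resting iTregs, 0 members were called under ORAIinh (3.97% of all genes were higher and 3.13% lower) and 1, Mki67, was lower under CsA (5.19% of all genes were higher and 4.24% lower). At an unadjusted p under 0.05, 36 members were lower under ORAIinh and 0 higher (15.5% and 15.8% of all genes), 40 were lower and 0 higher under CsA (19.2% and 17.3%), and edgeR and DESeq2 called 0 under ORAIinh and 1 under CsA. With the adjusted p alone 21 were lower under ORAIinh (8.82% of all genes) and 34 under CsA (12.5%). Mki67 was at 3898, 3447 and 4205 in resting iTregs, 2980.3, 2777 and 2909 in restimulated ones, 2801, 3103 and 2728 under ORAIinh and 2550.2, 2533 and 2483 under CsA, and the fall under CsA was -0.61 ± 0.07 (adjusted p = 2.4e-05).

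**Figure D5:**
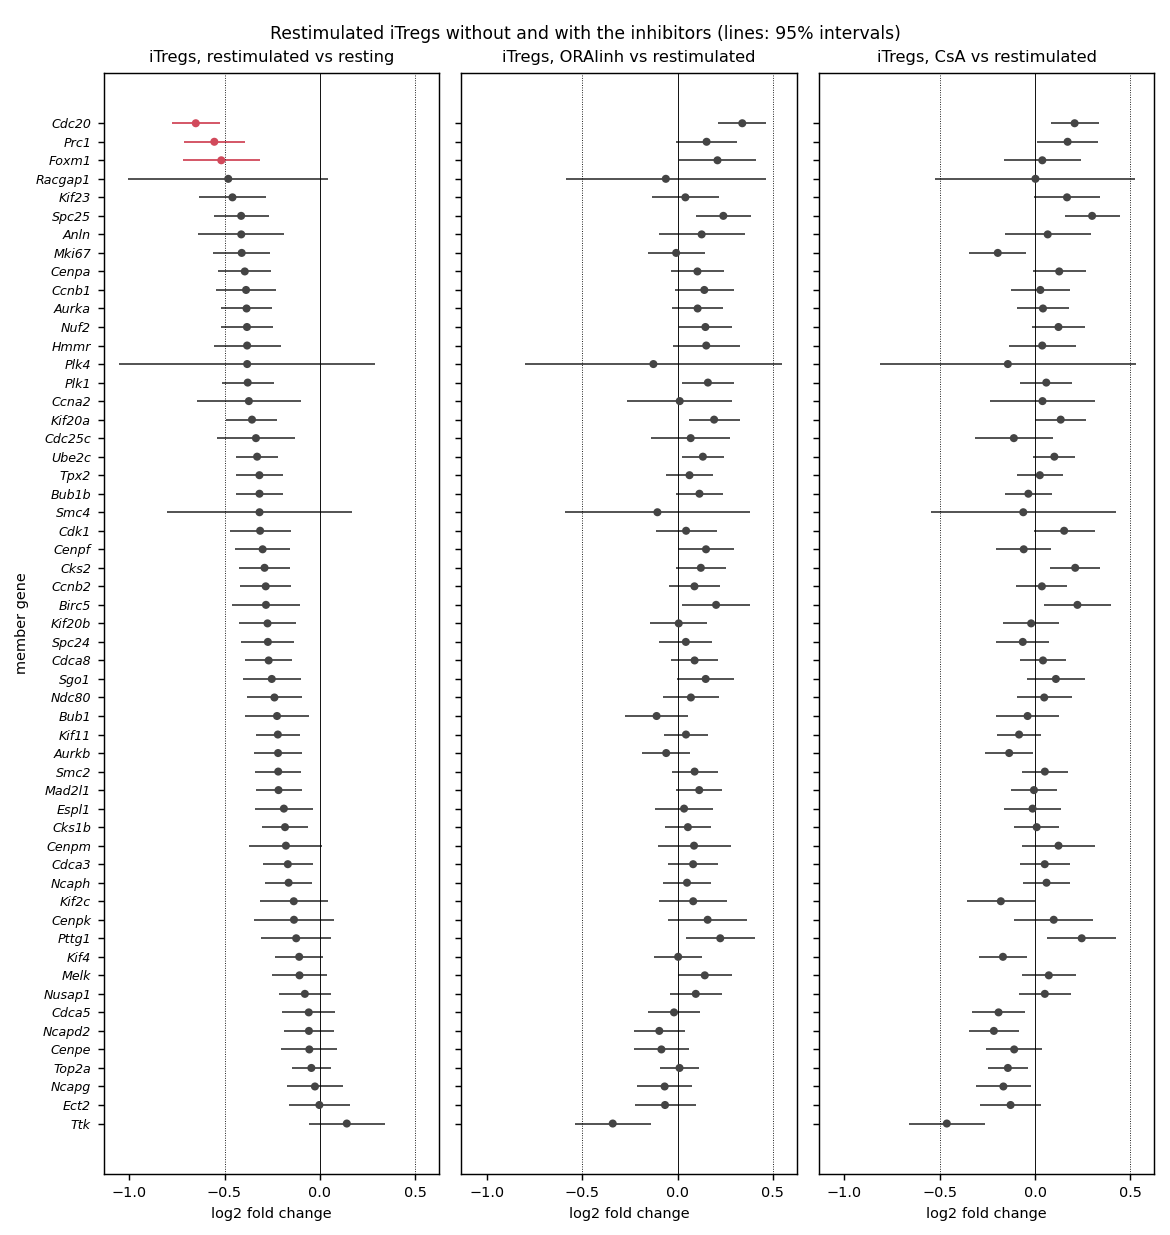
Log2 fold change of each of the 55 members (rows) with its 95% interval, for restimulated against resting iTregs (left) and for ORAIinh (middle) and CsA (right) against restimulated iTregs; dotted lines mark a change of 0.5 and red marks called members. The left estimates sit below zero for all but 1 member. All estimates of both inhibitors lie within the dotted lines. They are above zero for 43 members and below for 12 under ORAIinh, and for 33 and 22 under CsA.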

How the data were processed

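RNA-seq libraries were made with a modified SMART-seq2 protocol, which amplifies cDNA by PCR, keeps no strand and counts no molecular identifiers, so read counts are not counts of independent molecules. The authors trimmed reads with cutadapt, aligned them with STAR to GRCm38, counted genes with RSEM and normalized the counts with DESeq2, and they deposited 1 table of the resulting normalized counts. The deposited values are a signal: each gene's count divided by 1 size factor for its library. Every value was a whole multiple of the smallest value above 0 in its library (100% within a tolerance of 0.001), so whole reads were recovered for depth, for RPM (reads scaled to the total reads on genes) and for the count tests. ATAC-seq and CUT&Tag samples of the study were not analysed here.

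The main test was limma 3.58.1 with a trend on log2(normalized count + 1), for genes whose normalized count was 10 or more in 3 or more libraries of the fit, with Benjamini-Hochberg adjustment over all genes tested and calls at an adjusted p under 0.05 and an absolute log2 fold change over 0.5. One fit held the 15 libraries of Tconvs, tTregs and resting iTregs (11495 genes) and another the 12 iTreg libraries (11105 genes). edgeR 4.0.16 and DESeq2 1.42.0 on recovered reads, other scalings, filters and pseudocounts, a replicate block and each library left out in turn were run as alternatives. The fits were also run on simulated data, with the same spread in all groups and changes planted only in well-counted genes. That run does not cover the wider tTreg spread or members with a few reads. Lists were described by counts and medians and were given no test. Values in every library were given for the 2 members of each role with the highest level per kilobase (exon lengths from GENCODE vM21), the 3 largest called rises and falls of each comparison, and called members against the majority where these were 5 or fewer. Other members named were chosen after their values were seen. The members, lists and rules were chosen with earlier results of these data known. Promoters came from RefSeq (GRCm38.p6). Differences between the libraries of a group exceeded counting noise in every group. The variance between paired libraries was 12.7 to 37.9 times that of counting in tTregs, 1.61 to 4.55 times in Tconvs and 2.23 to 11.1 times in iTregs. Each limma fit used 1 variance per gene over all its groups, so standard errors of tTreg comparisons do not measure the tTreg spread alone.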

Additional observations from a re-analysis of the deposited data

Results flagged for a closer look

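The activation responses of 21 members differed between Tconvs and tTregs by the test of the difference itself (limma interaction, adjusted p under 0.05 and a difference over 0.5). Each value here is the log2 response in Tconvs minus that in tTregs. In favour of tTregs these were Kif23 at -3.19, Ccnb2 at -2.33, Cenpa at -1.56, Hmmr at -1.19, Kif20a at -0.88 and Pttg1 at -0.67. In favour of Tconvs, the condensin genes Smc2, Ncapg and Ncapd2 had 0.94, 1.29 and 0.61, Top2a had 2.40, and Cdca5 (sororin, which protects cohesion) had 1.56. At the kinetochore and centromere, Cenpk had 2.50, Cenpm 1.40, Aurkb 1.59 and Sgo1 (shugoshin) 1.12. The others were Anln at 2.03, Melk at 1.41, Tpx2 at 1.23, Cks2 at 1.22, Ttk at 0.98 and Kif20b at 0.70. Some of these calls were lost under alternatives: Ttk under 15, Kif20a under 10, Hmmr under 4, and Tpx2, Anln and Ncapd2 under 1 each. Anln was lost with a pseudocount of 0.1, and it stood at 0 to 3.75 normalized counts in resting Tconvs. Hmmr had 3 reads over the resting Tconv libraries and 0 in resting tTregs. With 3 libraries in a group, single libraries were not tested for standing apart.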

How the results depend on the processing

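Of 291 recomputed counts of called members, 275 stayed within 1.5 times the reported count, and for the 47 values of the largest called changes of each comparison, 828 of 833 recomputed values kept their direction and call at the same thresholds, 5 lost the call and 0 reversed. Of the 390 member calls over all comparisons, 33 were lost under at least 1 alternative at the same thresholds. In all there were 136 losses and 0 reversals. These calls include the 4 comparisons of resting iTregs with spleen cells, where only Smc4 lost a call. Between the resting spleen groups, 13 members were called higher and 10 lower. Lost there were the calls of Ccna2, Bub1b, Pttg1, Aurkb, Cenpe, Ndc80, Spc25, Hmmr, Kif4 and Racgap1. With the adjusted p alone the count was 36 for restimulated against resting iTregs, 3 and 5 for ORAIinh and CsA against restimulated, and 21 and 34 for ORAIinh and CsA against resting. With a fold threshold of 1 on the log2 scale, it was 0 for restimulated against resting, 0 for CsA against resting and 13 for resting tTregs against resting Tconvs, the last also giving 14 when fitted on those groups alone (fewer libraries). Without 1 library, counts ran from 2 to 4 for restimulated against resting iTregs, 0 to 1 for CsA against restimulated, 1 to 2 for CsA against resting, 19 to 25 for the difference in response, 22 to 27 between the activated groups, 19 to 24 between the resting spleen groups, 41 to 46 and 49 to 51 for activation of tTregs and Tconvs, and 54 to 55 in the 4 comparisons of resting iTregs with spleen cells. CsA against resting gave 2 without replicate 1 of CsA (Cdc25c added) and without replicate 2 of CsA or replicate 1 or 2 of resting (Foxm1 added).

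Replicate numbers were not shown to pair the libraries: same-numbered libraries deviated together with a mean correlation of -0.01 in the first fit and 0.15 in the second (lowest -0.42 and -0.04), against 0.00 and -0.08 for different numbers. In the iTreg fit 17 of 18 same-numbered pairs were above 0, with replicate 3 at 0.21 to 0.30, and 10 of 12 libraries correlated best with their own number, a hint from the data and not from the design. With the replicate block, ORAIinh against resting gave 2 members (Plk4 and Racgap1) and CsA against resting 2 (Mki67 and Plk4), and the block moved no other count by over 1.5 times. Quantile normalization moved the median of all genes by -0.14 in resting iTregs against resting Tconvs, with the member counts there at 54 and 1. On RPM the median level was 1.97% of that of resting iTregs in resting tTregs and 6.34% in activated tTregs, against 1.59% and 5.55% on normalized counts. In the promoter window of 150 bases before to 50 after the start, CCAAT was in 33 members (70.2%; 31.9% of all genes) and the CHR-like word in 35 (74.5%; 13.7%). Depth limits the size of a response for members with a few reads at rest.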

Other observations

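A few members followed the replicate number across the iTreg groups, a pattern looked for after the values were seen. In all 4 iTreg groups replicate 3 was the lowest for Plk4 (the kinase of centriole duplication), at 45.5% to 66.7% of the mean of the other libraries, Racgap1 (the GTPase-activating partner of Kif23), at 61.2% to 65.3%, Smc4, at 58.7% to 78.0%, and Ccna2, at 75.7% to 86.0%. Of all 11105 genes, 5.96% had replicate 3 lowest in all 4 groups, 1.42% replicate 2 and 1.87% replicate 1. Aurka, Cdca5, Cenpf and Nuf2 had replicate 2 lowest in all 4 groups, each at 91.0% or more of the others, and Melk replicate 1. The labels give no date or batch for the number.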
